A study of Mus musculus with 14 samples.

Results

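Acinar transcription factors are the proteins that hold the digestive enzyme programme of the exocrine pancreas in place, and 6 genes encoding them were followed here in duodenal mucosa: Ptf1a, Rbpjl, Bhlha15, Nr5a2, Gata4 and Gata6. The members were every probe set that the platform annotation gives to 1 of these symbols alone, which made 14 of the 45037 probe sets tested and 6 of the 18193 genes with such a probe set. Ptf1a had 1 probe set, Rbpjl, Bhlha15 and Gata4 had 2 each, Gata6 had 3 and Nr5a2 had 4, and a gene was read from the probe set with the highest mean over all arrays.

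The mucosa came from male C57BL6 mice, 12 weeks old at purchase and kept on a LF diet (10% calories from fat) before a fast of 12 h that every mouse went through. The Fasting group was sacrificed without a meal. The LF30min, LF1h and LF3h groups ate the LF meal, and the HF30min, HF1h and HF3h groups a HF meal (60% calories from fat), ad libitum, and the time in the name of a group (30 min, 1 h or 3 h) counts from the start of eating to sacrifice. Each group was 1 pool of RNA from 20 mice on 2 technical arrays, so that SDs and p-values cover the array and not the mouse. In such a bulk sample, fewer cells of a type and less RNA per cell cannot be told apart.

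In acinar cells PTF1A forms the trimeric PTF1 complex with a common bHLH partner (an E protein) and RBPJL, the acinar form of RBPJ, and this complex switches on the genes of the secreted enzymes and, in part, Ptf1a and Rbpjl themselves. BHLHA15 (MIST1) shapes the secretory machinery of acinar cells and is also made by gastric chief cells and plasma cells. The nuclear receptor NR5A2 (LRH-1) and the zinc finger factors GATA4 and GATA6 take part in the acinar programme too, but are in addition established regulators of the small intestinal epithelium, where NR5A2 acts in crypt renewal and GATA4 sets the duodenal and jejunal identity of enterocytes.

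PTF1 reads a 2-part site, an E-box for PTF1A with its E protein and a TC-box for RBPJL. Motifs of these factors were therefore searched on both strands of the 250 bases before each RefSeq start site (GRCm38.p6): the E-box CACCTG, the TC-box TTCCCA, the NR5A2 motif AAGGTCA and the GATA motif AGATAA, of which no pair overlaps in the windows shown. A window was given for 4 of the 6 members, in 5 start sites. The windows below are those of these 4 members (1 of 2 for Nr5a2) and of 2 enzymes, Cel, the bile salt-stimulated lipase, and Klk1, a kallikrein protease. These 2 enzyme windows held the E-box, the TC-box and the NR5A2 motif together and do not stand for all enzymes. Capitals mark the motifs, and a motif on the opposite strand reads as CAGGTG for the E-box, as TGGGAA for the TC-box, as TGACCTT for NR5A2 and as TTATCT for GATA.
Ptf1a, chr2:19445413-19445662, + strand: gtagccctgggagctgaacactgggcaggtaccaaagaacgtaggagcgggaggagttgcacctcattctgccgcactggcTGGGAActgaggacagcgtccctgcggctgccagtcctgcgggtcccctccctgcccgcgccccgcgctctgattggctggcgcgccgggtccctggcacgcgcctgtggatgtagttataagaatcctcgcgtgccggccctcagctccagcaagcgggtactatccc
Rbpjl, chr2:164402944-164403193, + strand: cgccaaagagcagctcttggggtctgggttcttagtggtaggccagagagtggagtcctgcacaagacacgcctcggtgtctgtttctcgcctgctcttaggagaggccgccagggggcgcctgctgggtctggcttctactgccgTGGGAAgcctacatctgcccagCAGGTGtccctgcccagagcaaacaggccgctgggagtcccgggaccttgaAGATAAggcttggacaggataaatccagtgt
Bhlha15, chr5:144190036-144190285, + strand: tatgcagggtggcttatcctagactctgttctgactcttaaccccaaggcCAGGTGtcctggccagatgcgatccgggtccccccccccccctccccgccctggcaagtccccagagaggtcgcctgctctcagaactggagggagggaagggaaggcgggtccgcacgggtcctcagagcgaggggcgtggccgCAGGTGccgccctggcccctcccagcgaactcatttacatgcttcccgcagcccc
Nr5a2, chr1:136960449-136960698, - strand: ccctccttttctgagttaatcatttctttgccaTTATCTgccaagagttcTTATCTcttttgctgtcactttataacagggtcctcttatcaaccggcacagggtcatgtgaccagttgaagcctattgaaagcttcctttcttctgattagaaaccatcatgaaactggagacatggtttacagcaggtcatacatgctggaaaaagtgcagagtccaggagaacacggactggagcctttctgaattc
Cel, chr2:28563404-28563653, - strand: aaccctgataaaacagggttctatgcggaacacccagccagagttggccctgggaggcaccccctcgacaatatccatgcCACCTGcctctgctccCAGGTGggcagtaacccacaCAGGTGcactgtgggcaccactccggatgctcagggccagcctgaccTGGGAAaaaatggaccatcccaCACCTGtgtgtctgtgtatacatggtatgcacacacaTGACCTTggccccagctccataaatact
Klk1, chr7:44225110-44225359, + strand: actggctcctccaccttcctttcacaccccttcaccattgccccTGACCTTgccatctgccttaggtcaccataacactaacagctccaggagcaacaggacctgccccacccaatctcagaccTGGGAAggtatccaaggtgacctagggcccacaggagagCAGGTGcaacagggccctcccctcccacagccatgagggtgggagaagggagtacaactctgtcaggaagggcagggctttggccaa

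The Rbpjl window held a TC-box that began 104 bases before the start site, an E-box at 82 bases and a GATA motif at 31 bases. Ptf1a held a TC-box at 169 bases and no CACCTG, Bhlha15 held E-boxes at 200 and 55 bases and no TC-box, and the Nr5a2 window shown held GATA motifs at 217 and 200 bases. A further Nr5a2 start site, with its window at chr1:136953631-136953880, held 1 E-box at 66 bases. The Klk1 window held a TC-box at 126, an E-box at 87 and an NR5A2 motif at 206 bases, and the Cel window held E-boxes at 170, 154, 134 and 65 bases, a TC-box at 87 and an NR5A2 motif at 28 bases. Of enzyme windows not printed, that of Prss3 held an E-box alone, that of Pnliprp1 a TC-box alone and that of Pla2g1b no motif.

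Of the 32851 windows, 17.2% held the E-box, 21.6% the TC-box, 3.91% both, 4.08% the NR5A2 motif and 9.99% the GATA motif. Of the 15 acinar enzyme genes with a window, 10 held the E-box, 9 the TC-box, 5 both, 3 the NR5A2 motif and 3 the GATA motif. A gene counted here if any of its windows held the motif, so these counts and the shares of single windows are unlike measures. A match describes these letters in this window, and binding was not measured.

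After normalization across arrays the medians were log2 4.47 to 4.55, with a correlation of 0.996 to 0.997 between the arrays of a pool. A pool mean under a log2 value of 6 was called near background, as 70.5% of all probe sets were by their mean, and so were all 83 probe sets of olfactory, vomeronasal and taste receptor genes (median 3.17, 95th percentile 4.67, maximum 5.91), which served as a reference for genes not in use in this tissue. The 9 enterocyte markers measured had a mean of log2 12.60 to 12.64 in the 7 pools and mark the tissue as its label does. By the same measure Gata6, Gata4, Nr5a2 and Bhlha15 lay above background in all 7 pools, Ptf1a only in HF3h, where its mean was at the limit, and Rbpjl in none.

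**Figure D1:**
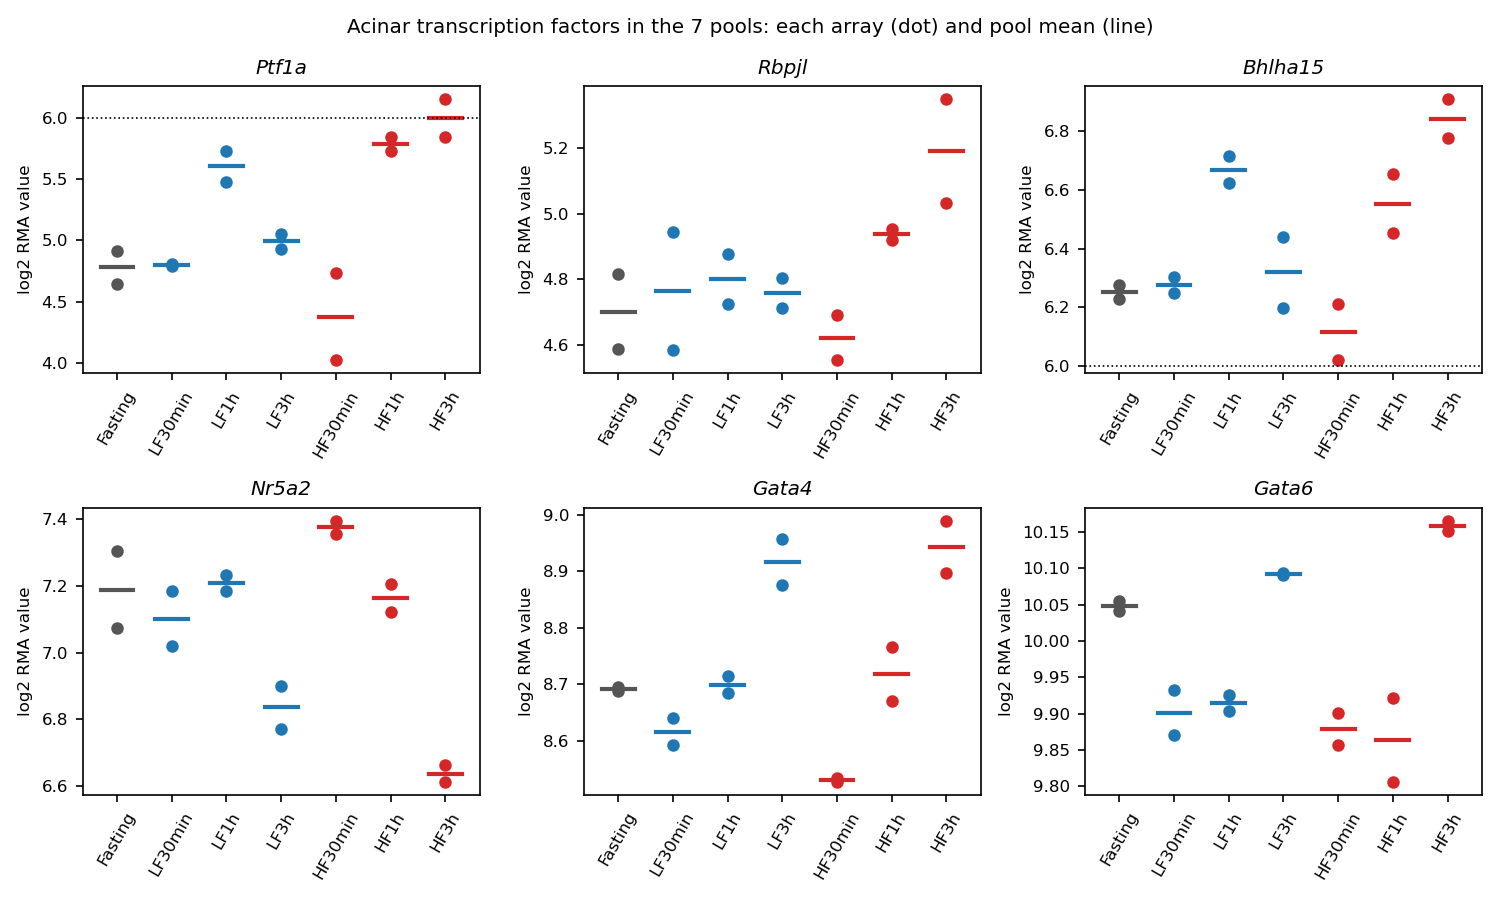
Log2 RMA value (y axis, a separate scale for each gene, not starting at 0) of the 6 factors in the 7 pools (x axis). Dots are the 2 technical arrays of a pool and lines their mean, grey for Fasting, blue for LF and red for HF, and the dotted line marks the near-background limit of 6. Ptf1a and Bhlha15 were highest at HF3h and lowest at HF30min, while Nr5a2 was lowest at HF3h.

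Ptf1a, Bhlha15 and Nr5a2 were the members that differed from the fasting condition, and the differences lay at LF1h, HF1h and HF3h. By limma with Benjamini-Hochberg adjustment, 5 of the 36 pairs of a member and a fed pool passed an adjusted p of 0.05, against 2.69% of the pairs of all genes, and 2 of the 36, Ptf1a at HF1h and at HF3h, were also modulated, that is changed at least 2-fold on the log2 scale, against 0.232%. For both the fasting mean lay near background. At HF3h 2 members were higher (Ptf1a, Bhlha15) and 1 was lower (Nr5a2), where 6.67% of all genes passed, 2.97% higher and 3.7% lower, and the median over the 6 members was 0.37 against 0.00 over all genes. Ptf1a alone passed at LF1h (1.54% of all genes) and at HF1h (1.01%). No member passed at LF30min (0.401% of all genes), LF3h (5.41%) or HF30min (1.12%), and at an unadjusted p under 0.05 limma gave 0, 2 and 1 of the 6 there. Between the meals, 2 of 18 pairs passed (0.993% of all genes), both higher in HF3h than in LF3h (2.2% of all genes). None passed between HF30min and LF30min (0.55%) or between HF1h and LF1h (0.225%), with 2 and 0 of 6 at an unadjusted p under 0.05. All shares of all genes are at the adjusted threshold. The share at an unadjusted p was not counted, so counts at that threshold, here and below, have no reference and are not read as results.

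**Figure D2:**
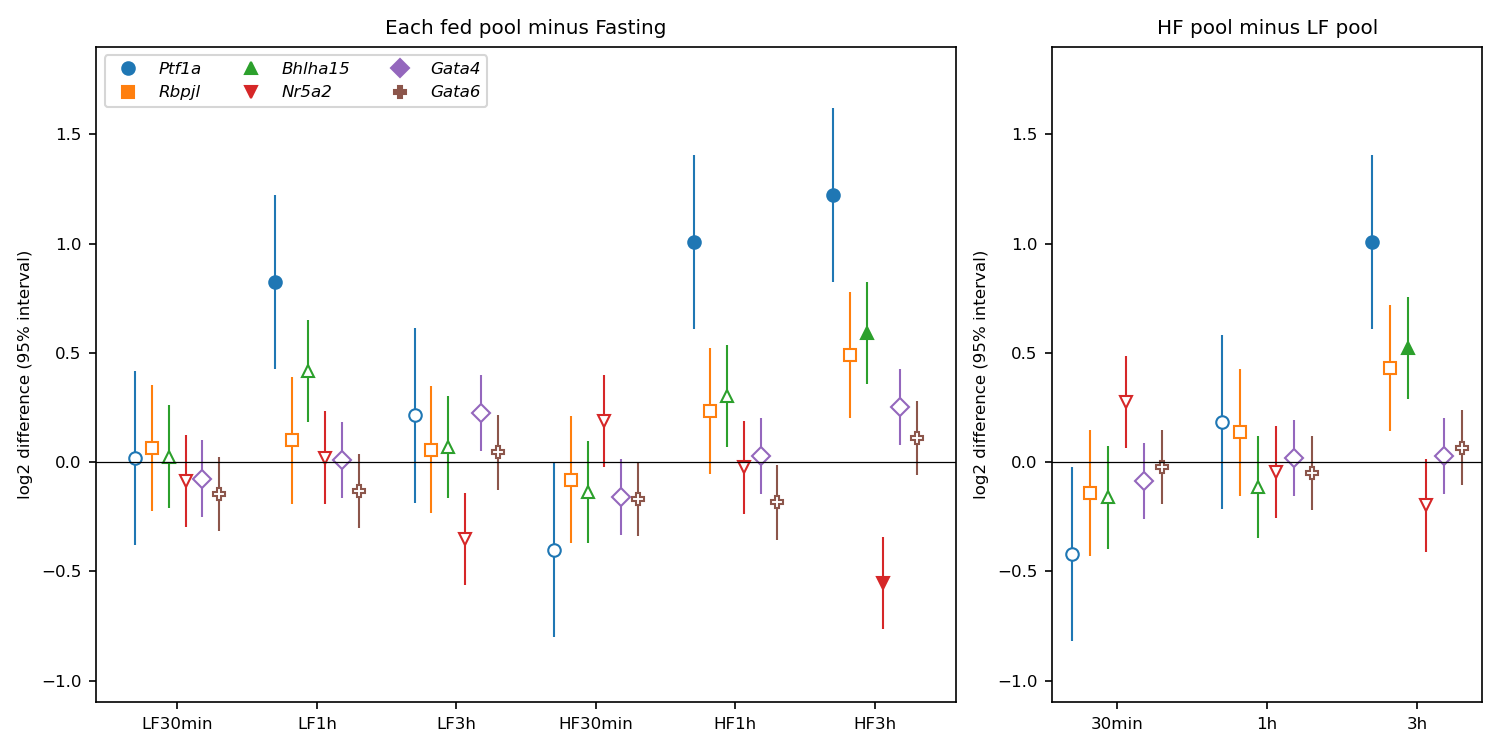
Log2 difference (y axis) of each fed pool from Fasting (left) and of each HF pool from the LF pool of the same time (right), with 95% intervals of the limma fit over 2 technical arrays a pool. Filled symbols passed an adjusted p of 0.05, open ones did not. Ptf1a passed at LF1h, HF1h and HF3h, Bhlha15 and Nr5a2 at HF3h, and Ptf1a and Bhlha15 between the meals at 3 h.

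Ptf1a, which encodes the DNA-binding bHLH subunit that PTF1 is named for, varied most among the members, over 1.62 log2 units between pools. Its arrays read 4.65 and 4.91 in Fasting, 4.79 and 4.81 in LF30min, 5.73 and 5.48 in LF1h and 5.06 and 4.93 in LF3h. After the HF meal they read 4.02 and 4.74 in HF30min, 5.85 and 5.73 in HF1h and 6.16 and 5.85 in HF3h. Both arrays of LF1h, HF1h and HF3h lay above every array of the other pools, while the HF30min arrays were far apart and one of them overlapped the range of Fasting. Compared to Fasting, Ptf1a rose by 0.83 at LF1h (SE 0.19, adjusted p = 0.0435), by 1.01 at HF1h (adjusted p = 0.0174) and by 1.22 at HF3h (adjusted p = 0.00121), all on the log2 scale. No fold is given, since the fasting pool lay near background. The difference was 0.02 at LF30min (95% interval -0.38 to 0.42), 0.21 at LF3h (adjusted p = 0.643) and -0.40 at HF30min (adjusted p = 0.395).

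In the order of its levels, Ptf1a ran from HF30min through Fasting, LF30min and LF3h to LF1h, HF1h and HF3h. A pair of pools had to differ by 0.399 for the 95% interval to leave 0, and of the 6 steps between neighbours those from HF30min to Fasting (0.402) and from LF3h to LF1h (0.612) did so. HF3h exceeded LF3h by 1.01 (adjusted p = 0.0137), whereas HF1h and LF1h differed by 0.18 (95% interval -0.22 to 0.58). Among the alternatives run, the filter on dim probe sets kept Ptf1a only through its HF3h mean. That fit is therefore no separate test of the HF3h calls of Ptf1a. The HF3h call against Fasting held under all 23 alternatives run (highest adjusted p 0.0225). The LF1h call was lost with the replicate block (adjusted p = 0.0606) and without any 1 array of Fasting, LF30min, LF1h, LF3h or HF1h (0.0555 to 0.347), the HF1h call without any 1 array of Fasting or HF1h (0.056 to 0.203), and the difference between the meals at 3 h without either array of LF3h or the first of HF3h (0.0649 to 0.156), in limma fits whose adjusted p ranged from 0.00231 to 0.347, 0.00025 to 0.203 and 0.000187 to 0.156, respectively.

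Rbpjl, the acinar subunit of PTF1, was near background in every pool. Its arrays read 4.82 and 4.59 in Fasting, 4.95 and 4.58 in LF30min, 4.72 and 4.88 in LF1h, 4.80 and 4.71 in LF3h, 4.69 and 4.55 in HF30min, 4.92 and 4.95 in HF1h and 5.03 and 5.35 in HF3h. Both HF3h arrays were above all others, and the arrays of the remaining pools overlapped widely. HF3h differed from Fasting by 0.49 (SE 0.13, limma adjusted p = 0.0503), just short of the threshold, and from LF3h by 0.43 (adjusted p = 0.138). The second probe set of Rbpjl did not single out HF3h, since HF3h and HF1h both had a mean of 4.50 and overlapping arrays. They differed from Fasting by 0.31 (adjusted p = 0.194) and 0.30 (adjusted p = 0.333). The profiles of the 2 probe sets correlated at r = 0.837 over 7 pools. On the first probe set, no step between neighbouring pools left the interval of 0.289.

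No further gene of the PTF1 complex passed as higher. Of 4 partner genes, Rbpj and the E proteins Tcf3, Tcf4 and Tcf12, Tcf3 was lower at HF3h, by 0.48 (adjusted p = 0.0291), with means of 6.16 in Fasting and 5.68 in HF3h. Tcf3 was also lower in HF3h than in LF3h, by 0.54 (adjusted p = 0.033). The other three passed in no comparison, and Rbpj, the ubiquitous RBPJL paralogue and Notch effector, differed from Fasting at HF3h by 0.08 (adjusted p = 0.791). The median over the 4 partners at HF3h was -0.23, against 0.00 over all genes.

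Bhlha15, the bHLH factor of the acinar secretory apparatus, changed in the same direction as Ptf1a and above background. Its arrays read 6.28 and 6.23 in Fasting, 6.30 and 6.25 in LF30min, 6.62 and 6.72 in LF1h and 6.44 and 6.20 in LF3h. In the HF pools they read 6.02 and 6.21 in HF30min, 6.65 and 6.45 in HF1h and 6.78 and 6.91 in HF3h. Both HF3h arrays were above all others, those of LF1h and HF1h came next and overlapped each other, and the HF1h arrays were above both fasting arrays. Bhlha15 rose 1.51-fold at HF3h compared to Fasting (log2 difference 0.59, SE 0.11, limma adjusted p = 0.00482) and was 1.44-fold higher in HF3h than in LF3h (0.52, adjusted p = 0.0278). The differences from Fasting of 0.42 at LF1h (adjusted p = 0.0895) and 0.30 at HF1h (adjusted p = 0.269) did not pass, and that at LF3h was 0.07 (95% interval -0.17 to 0.30).

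Among the neighbours in the order of Bhlha15, from HF30min through Fasting, LF30min, LF3h, HF1h and LF1h to HF3h, the step from LF3h to HF1h (0.235) alone left the interval of 0.234. The second Bhlha15 probe set, near background in all pools, was higher at HF3h as well (0.42, limma adjusted p = 0.0308), but it read the LF30min pool 0.38 above Fasting (adjusted p = 0.201), where the first read 0.03. Without the second HF3h array the call of the first probe set at HF3h was lost (0.53, adjusted p = 0.0579, range over the alternatives 0.000289 to 0.0579). The difference between the meals at 3 h was lost without the second LF3h array or either HF3h array (adjusted p = 0.0907 to 0.296, range over the alternatives 0.00296 to 0.296).

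Of 5 genes named as BHLHA15 targets, Copz2, a coat protein subunit of vesicles, alone passed, at HF3h (0.56, adjusted p = 0.0174) and in HF3h over LF3h (0.91, adjusted p = 0.00149), with near-background means of 5.06 in Fasting and 5.62 in HF3h. Rab3d and Rab26, small GTPases of secretory granules, differed from Fasting at HF3h by 0.37 (adjusted p = 0.106) and 0.27 (adjusted p = 0.14), and Gjb1, a gap junction protein, by -0.01. Plasma cell and gastric markers were set beside Bhlha15 because those cells also make it. None of 8 plasma cell markers passed as higher in any of the 6 comparisons with Fasting, at HF3h also not at an unadjusted p under 0.05, and Mzb1 was lower there by 0.41 (adjusted p = 0.0103). The list mean was between 8.50 (HF3h) and 8.70 (LF3h). The 9 stomach and Brunner gland markers were highest at HF30min (list mean 8.26, against 6.04 in Fasting and 6.87 in HF3h), where 9 of 9 were higher than Fasting, Gkn1 by 3.94 and Tff2 by 3.68, and Bhlha15 was lowest. Gkn2 and Tff1 changed most at LF30min, by 3.77 and 2.57. At HF3h 4 of 9 were higher (2.97% of all genes), and the chief cell genes Pgc and Cblif differed from Fasting by 0.15 (adjusted p = 0.651) and -0.07 (adjusted p = 0.855). At LF1h, where Bhlha15 was also high, 5 of 9 were higher than Fasting (median 0.69, 1.18% of all genes). In HF3h 4 of 9 were higher than in LF3h (1.19% of all genes), as Bhlha15 was. The part of gastric and plasma cells in the Bhlha15 values was not tested.

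Nr5a2, the nuclear receptor LRH-1, went the other way from Ptf1a and Bhlha15 at HF3h. Its arrays read 7.07 and 7.30 in Fasting, 7.18 and 7.02 in LF30min, 7.19 and 7.23 in LF1h and 6.90 and 6.77 in LF3h. They read 7.40 and 7.36 in HF30min, 7.12 and 7.21 in HF1h and 6.66 and 6.61 in HF3h. The arrays of both 3 h pools lay below all others, with those of HF3h lowest, and the HF30min arrays lay above all others. Nr5a2 fell 1.47-fold at HF3h compared to Fasting (log2 difference -0.55, SE 0.10, limma adjusted p = 0.00388), and differed by -0.32 when its 4 probe sets were averaged (adjusted p = 0.0372). The difference at LF3h was -0.35 (adjusted p = 0.0579), HF3h and LF3h differed by -0.20 (95% interval -0.41 to 0.01), and HF30min differed from Fasting by 0.19 (adjusted p = 0.466). Without the second fasting array the HF3h call was lost (-0.44, adjusted p = 0.0636, range over the alternatives 0.000123 to 0.0636). In its order of pools, the step from LF3h to LF30min (0.266) alone left the interval of 0.211.

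All 4 probe sets of Nr5a2 were lowest at HF3h, and their profiles correlated at r = 0.639 to 0.907 over 7 pools. The other 3 were near background in 6 or all 7 pools and did not pass at HF3h, with -0.32 (adjusted p = 0.0547) for the brightest of them. That probe set was higher in HF30min (mean 5.94) than in LF30min (mean 5.48), by 0.46 (adjusted p = 0.0374), where the probe set standing for the gene differed by 0.27 (adjusted p = 0.356). Of the 14 member probe sets this was 1 called between HF30min and LF30min, against 0.442% of all probe sets.

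Of 5 cofactors of NR5A2, Nr0b2 (SHP), the corepressor that binds this receptor, was higher by 0.42 in LF3h (adjusted p = 0.0119) and by 0.78 in HF3h (adjusted p = 9.13e-05), the pools in which Nr5a2 was lowest. The coactivator Ppargc1a was lower in HF3h than in LF3h, by 0.48 (adjusted p = 0.00927). Of 12 NR5A2 targets, 2 were higher and 2 lower than Fasting at HF3h (2.97% and 3.7% of all genes). The same counts passed at LF3h (5.41% in either direction). Abcg8, the sterol exporter subunit, was lower by 0.92 after 3 h of the LF meal (adjusted p = 2.86e-05) and by 1.03 after 3 h of the HF meal (adjusted p = 5.2e-06), and its partner Abcg5 by 0.42 (adjusted p = 0.0065) and 0.31 (adjusted p = 0.0314). Cel, which is an acinar enzyme as well as an NR5A2 target, moved with the enzymes, from -1.01 at HF30min (adjusted p = 1.38e-05) to 0.95 at HF3h (adjusted p = 8.41e-06), and Ccnd1, the cell cycle regulator cyclin D1, was higher at LF3h (0.46, adjusted p = 0.0188). Medians over the 12 targets at LF3h and HF3h were -0.01 and 0.01, against -0.02 and 0.00 over all genes.

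**Figure D3:**
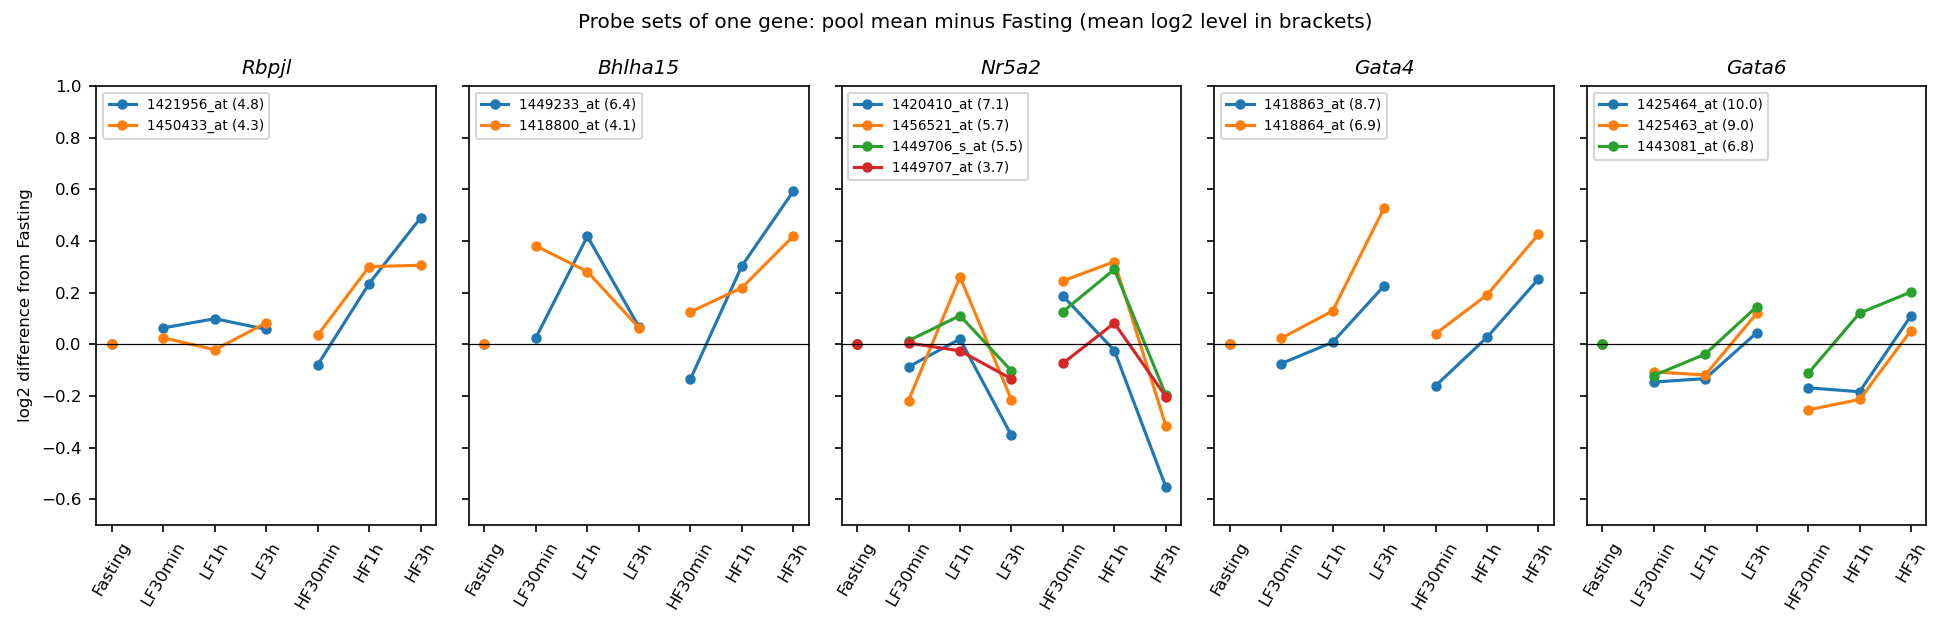
Log2 difference of each pool mean from Fasting (y axis) for every probe set of the 5 members with more than 1 (x axis, pools; lines join the times of a meal; brackets give the mean log2 level). All 4 Nr5a2 probe sets were lowest at HF3h, both Gata4 probe sets were highest at 3 h, and the 2 Bhlha15 probe sets parted at LF30min.

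Gata4 was bright in every pool and its probe sets gave different calls. The brighter one read 8.69 and 8.69 in Fasting, 8.64 and 8.59 in LF30min, 8.71 and 8.68 in LF1h, 8.88 and 8.96 in LF3h, 8.53 and 8.53 in HF30min, 8.77 and 8.67 in HF1h and 8.99 and 8.90 in HF3h. The 4 arrays taken at 3 h lay above all others and overlapped each other. On this probe set LF3h differed from Fasting by 0.23 (SE 0.08, limma adjusted p = 0.15) and HF3h by 0.25 (adjusted p = 0.0968), and the step from HF1h to LF3h (0.199) was the only one between neighbours to leave the interval of 0.174. HF3h and LF3h differed by 0.03 (95% interval -0.15 to 0.20). The second probe set, with a mean of 6.67 in Fasting, was higher by 0.53 in LF3h (adjusted p = 0.0132) and by 0.43 in HF3h (adjusted p = 0.0365), where 4.88% and 5.57% of all probe sets passed. The profiles of the 2 correlated at r = 0.913 over 7 pools.

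Gata6, whose pool means covered the narrowest range (0.295), read 10.06 and 10.04 in Fasting, 9.93 and 9.87 in LF30min, 9.93 and 9.90 in LF1h, 10.09 and 10.09 in LF3h, 9.90 and 9.86 in HF30min, 9.81 and 9.92 in HF1h and 10.15 and 10.17 in HF3h. On this brightest probe set, Fasting and both 3 h pools lay above the 30 min and 1 h pools without overlap. No difference from Fasting passed on any of its 3 probe sets. The extremes on the brightest were -0.18 at HF1h (95% interval -0.35 to -0.01, limma adjusted p = 0.377) and 0.11 at HF3h (95% interval -0.06 to 0.28, adjusted p = 0.547). The dimmest, above background in all pools, had the other sign at HF1h (0.12, 95% interval -0.07 to 0.31, adjusted p = 0.661). The profiles of the 3 correlated at r = 0.591 to 0.917 over 7 pools.

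Among 6 GATA cofactors and further GATA factors, Zfpm1 (FOG1), the cofactor that binds the GATA zinc finger, was higher by 0.56 in LF3h (adjusted p = 0.00212) and by 0.57 in HF3h (adjusted p = 0.00131), and Gata5 was higher at HF3h (0.40, adjusted p = 0.00861). The remaining cofactors and GATA factors passed in no comparison. Of 5 genes linked to GATA4 in the intestine, Fabp1, the liver-type fatty acid binding protein, alone passed, at HF3h (0.33, adjusted p = 0.0255), and lactase (Lct) differed from Fasting by -0.05 there (adjusted p = 0.831). The 3′ minus 5′ difference of the actin control probe sets, a sign of RNA quality, was 0.398 at LF3h and 0.429 at HF3h against 0.470 to 0.525 elsewhere. That of the Gapdh control was -0.03 at LF3h, and 0.0147 at HF3h, within the 0.0144 to 0.0811 of the remaining pools. Their part in the 3 h values was not tested.

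The enzyme genes that PTF1 switches on passed in 69 pairs of a gene and a fed pool. The platform measured 17 of 26 listed acinar enzymes and cofactors. All 17 were higher at LF1h and HF3h and 16 at HF1h, with medians of 0.79, 0.81 and 0.62 against -0.01, 0.00 and 0.01 over all genes, of which 1.18%, 2.97% and 0.649% passed as higher. At HF30min 15 were lower (median -0.89, 0.363% of all genes) and at LF3h 4 were lower (median -0.25, 2.28%) and 16 at an unadjusted p under 0.05, while at LF30min none passed by limma (median -0.08, 1 lower at an unadjusted p under 0.05). The largest changes were those at LF1h of Prss3, a trypsinogen of a family of near-identical genes (2.10, adjusted p = 1.23e-07, near background in Fasting), and of Pla2g1b, the secreted phospholipase (1.57, adjusted p = 1.05e-06). Klk1 rose by 1.26 at LF1h (adjusted p = 9.25e-07) and 1.13 at HF3h (adjusted p = 1.83e-06) and fell by 1.01 at HF30min (adjusted p = 1.33e-05), and Pnliprp1, a lipase-related protein, was higher by 1.13, higher by 1.12 and lower by 1.07 in the same pools. Between the meals all 17 were higher in HF3h than in LF3h (median 1.16, 1.19% of all genes), and none passed between HF1h and LF1h (median -0.20, 11 lower at an unadjusted p under 0.05). At 30 min the difference had the other sign, with 14 lower in HF30min than in LF30min (median -0.82). There 0.55% of all genes passed in either direction. Enzymes and factors were tested against the same fasting arrays, so these counts are not independent of each other.

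Of 17 acinar granule and secretory genes, 11 were higher at LF1h (1.18% of all genes), 9 at HF1h (0.649%) and 12 at HF3h (2.97%). At HF30min 7 were lower (0.363%), and at LF3h 1 was higher and 2 were lower (5.41% in either direction). Between the meals 11 were higher in HF3h than in LF3h (1.19%), and 7 were lower in HF30min than in LF30min (0.55% in either direction). Between HF1h and LF1h 1 was lower (0.225% in either direction). Cckar, the cholecystokinin receptor through which acinar cells are stimulated, was higher by 1.65 at LF1h (adjusted p = 9.47e-07), by 1.01 at HF1h (adjusted p = 0.000208) and by 1.81 at HF3h (adjusted p = 3.23e-07) and lower by 0.74 at HF30min (adjusted p = 0.00288), with means of 4.77 in Fasting and 6.58 in HF3h. Erp27, an endoplasmic reticulum protein, and Serpini2, a serpin of the pancreas, were both higher by 1.67 at LF1h (adjusted p = 5.1e-05 and 1.97e-06). Gatm, the first enzyme of creatine synthesis, was higher by 1.55 at HF3h (adjusted p = 5.35e-07) and differed by 0.12 at HF30min (adjusted p = 0.687).

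Set against the mean of the 17 enzymes over the 7 pools, Ptf1a (r = 0.937) and Bhlha15 (r = 0.928) followed it most closely, then Rbpjl (0.75). Gata4 correlated with it at 0.437, and the correlations of Nr5a2 (-0.36) and Gata6 (0.142) were weak. Nr5a2 differed from Fasting by 0.02 at LF1h and -0.02 at HF1h. Ptf1a and Bhlha15 correlated with each other at 0.966, Gata4 and Gata6 at 0.837, and Nr5a2 and Gata4 at -0.929. These are descriptions over 7 pools, whose points share the pool, its RNA and its arrays.

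**Figure D4:**
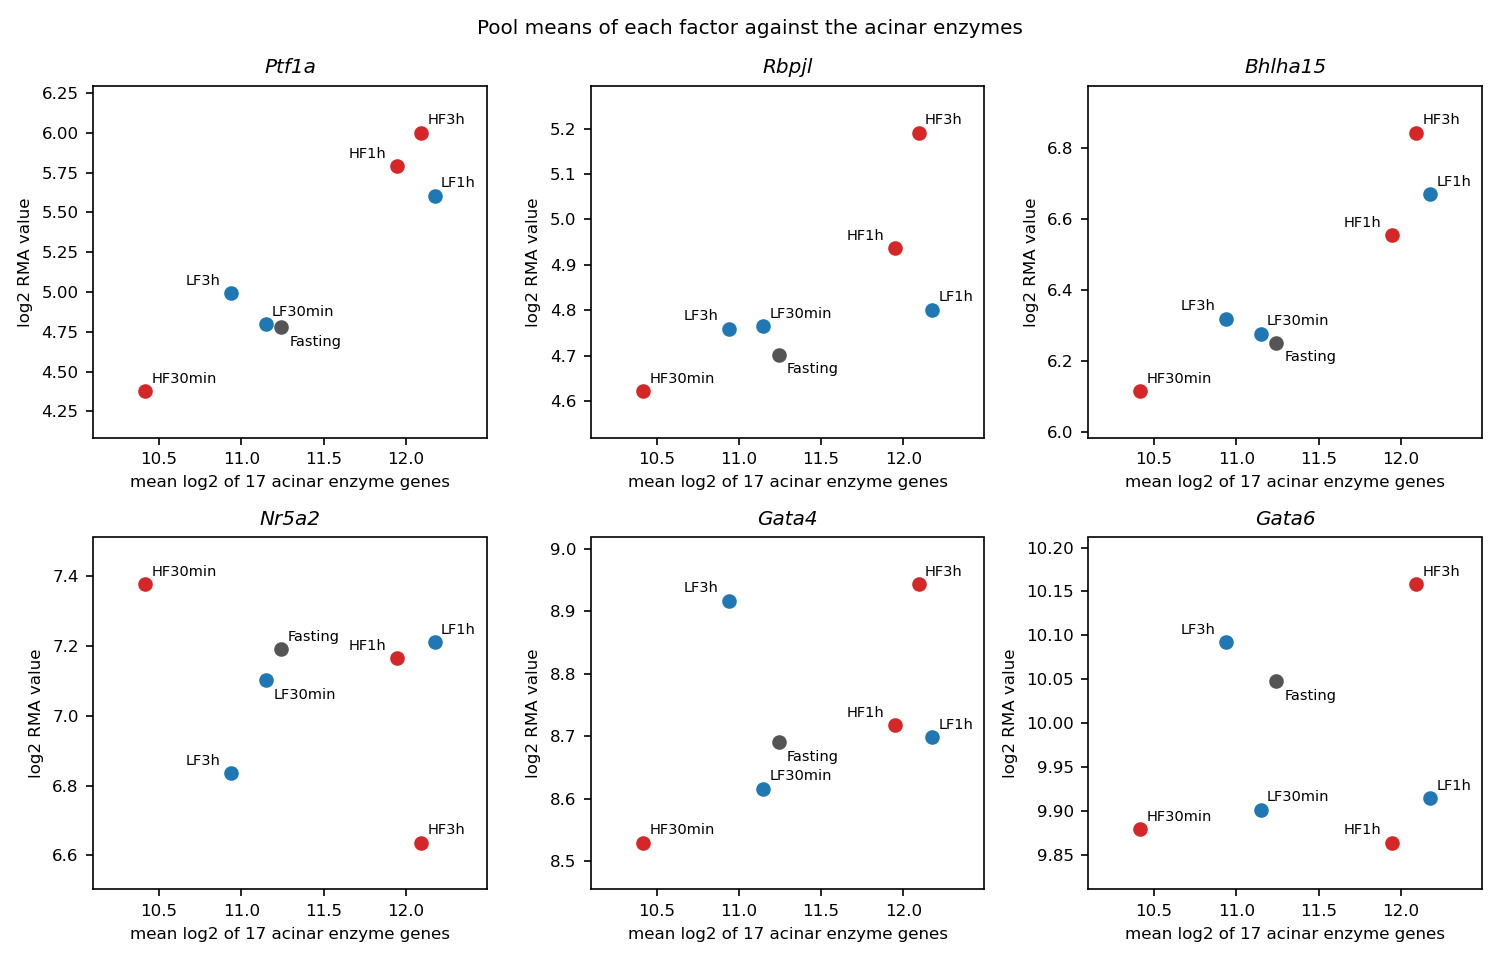
Pool mean of each factor (y axis, log2 RMA value, a separate scale for each) against the mean log2 value of 17 acinar enzyme genes (x axis) in the 7 pools, each labelled (grey Fasting, blue LF, red HF). Ptf1a and Bhlha15 were high in the 3 pools with the highest enzyme mean (r = 0.937 and 0.928), whereas in Nr5a2 and Gata4 the 3 h pools lay apart from the rest.

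Among 1284 genes that reached a log2 value of 6 and ranged over at least 0.5, those with the profile most like Ptf1a over the 7 pools were Gal (0.969), Pdia2 (0.969), Bhlha15 (0.966), Cuzd1 (0.964) and Nucb2 (0.953), where Gal encodes galanin, Pdia2 the pancreatic disulfide isomerase and Cuzd1 a zymogen granule protein. Those most like Bhlha15 were Fkbp11 (0.995), Nucb2 (0.991), Cckar (0.981), Pdia2 (0.972) and Ptf1a (0.966). Those most like Nr5a2 were Ivns1abp (0.988), Fut8 (0.985), Foxn3 (0.982), Mlxip (0.982) and Paip2 (0.981). No gene of the acinar lists was among the last 5. Reaching 6 in any pool was enough to be a candidate, so dim genes entered only through their highest pools. Ptf1a entered through HF3h, and Cckar had means of 4.77 in Fasting and 6.58 in HF3h. For such genes the ranking is not independent of where they peak.

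Other regulators of the pancreas passed in few comparisons. Of 13 measured, none passed at HF3h by limma, although 3 were higher at an unadjusted p under 0.05, 2 were higher at LF3h and 1 at HF30min. In each pool 10 of the 13 were near background, which limits what their not passing can show. Foxa1, a pioneer factor of gut and pancreas, was higher at LF3h (0.55, adjusted p = 0.00916) and at HF30min (0.67, adjusted p = 0.0076), and Pdx1, the pancreas and duodenum homeobox factor, at LF3h (0.48, adjusted p = 0.0406), where Ptf1a did not pass. Of 11 regulators of the intestinal epithelium, 2 were higher and 4 lower at HF3h (2.97% and 3.7% of all genes). Ppara, the fatty acid receptor, fell by 1.00 (adjusted p = 8.8e-06), Hnf4g by 0.68 (adjusted p = 0.000408), Klf5 by 0.62 (adjusted p = 0.000229) and Maf by 0.50 (adjusted p = 0.00721). At LF3h 3 of the 11 were lower as well (2.28% of all genes) and none was higher. Between HF3h and LF3h 1 was higher and 1 lower.

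Markers of other cells were read in the same pools. Of all genes, 6.67% passed at HF3h, 5.41% at LF3h and 1.12% at HF30min in either direction. Of the 9 enterocyte markers, Fabp1 was higher at HF3h and Anpep lower at LF3h, by 0.33 (adjusted p = 0.0418), and no other passed. Of 7 islet markers, 3 were higher at HF3h and 4 at HF30min, with list means of 5.78 in Fasting, 6.19 in HF3h, 6.45 in HF30min and 5.35 in LF3h, so that they were highest in the pool where Ptf1a was lowest. Iapp was higher at HF30min by 1.60 (adjusted p = 3.62e-05), and Ins2 was lower at LF3h by 2.05 (adjusted p = 3.05e-08). Of 4 adipocyte markers, 2 were higher at HF3h, Cidec by 1.01 (adjusted p = 8.69e-06), and Adipoq by 0.96 with a mean of 4.08 there. Cidec alone lay above background (8.32 in Fasting), while the other 3 were near it in every pool. The 4 mesothelial markers were near background throughout (list means 3.69 to 3.86), and of the smooth muscle markers Myh11 alone passed as higher, at HF30min (0.78, adjusted p = 0.000408). At LF30min 6 of 8 smooth muscle markers were higher and none lower at an unadjusted p under 0.05 by limma. Their median there was 0.30, against -0.01 over all genes. Of 7 goblet and Paneth cell markers 1 was higher and 1 lower at HF3h, and of 6 enteroendocrine markers none passed there (1 higher at an unadjusted p under 0.05). The part of these cells in the values of the factors was not tested.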

How the data were processed

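Total RNA of 7 pools of duodenal mucosa was hybridized by the authors to 14 Affymetrix arrays, 2 technical replicates a pool. The deposited values are log2 probe set intensities, background-corrected and normalized across arrays by RMA per the submitters' processing notes, the log base being taken from that method. RMA shrinks differences near background, and precision was limited by 2 arrays a pool.

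Of 45101 probe sets, 64 Affymetrix controls were left out. The platform annotation, updated by Entrez ID, gave 1 gene to 34945 probe sets, several to 932 and none to 9160. Following the study's methods, limma 3.58.1 in R 4.3.3 fitted the mean of every pool, with 7 residual and 6.4 prior degrees of freedom. The 6 comparisons with Fasting and 3 of HF with LF each had their own Benjamini-Hochberg adjustment, over 45037 probe sets. A gene was called at an adjusted p under 0.05 of its brightest probe set. The procedure was tested on simulated data. Plots were made in matplotlib 3.10.9 (Python 3.11.15).

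The members and lists were chosen with earlier results of these data known. By the rule for names, all members are given, with up to 4 genes per list of those with the largest passing change from Fasting (not all of these among the cell markers) and the 5 genes most like each member that passed. Other listed genes and the windows printed were chosen after their values were seen. Listed genes without a probe set of 1 gene, among them Amy2a5, Pnlip, Ins1 and Sis, were not analysed here. Alternatives were other scaling, a filter on dim probe sets, other variance models, a replicate block, other use of probe sets, a 1.5-fold minimum and leaving out each array. Fits without the 30 min pools were chosen after seeing the data.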

Additional observations from a re-analysis of the deposited data

Results flagged for a closer look

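The LF and HF pools differed by a direct test for 3 probe sets of the factors. Ptf1a was higher in HF3h than in LF3h by 1.01 on the log2 scale (limma adjusted p = 0.0137), and both HF3h arrays lay above both LF3h arrays. Bhlha15 was higher in HF3h than in LF3h by 0.52 (adjusted p = 0.0278), again in both arrays. The second-brightest Nr5a2 probe set was higher in HF30min than in LF30min by 0.46 (adjusted p = 0.0374), in both arrays, at levels near background, and the brightest Nr5a2 probe set did not pass there. Each of these compares 1 pool with 1 pool, and the p-values cover the arrays alone.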

How the results depend on the processing

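In place of the 5 calls of members against Fasting there were 9 when probe sets under a log2 value of 6 in every pool were left out (Rbpjl was then not tested), 10 with an intensity trend in the variance and 9 when a gene's probe sets were averaged, and leaving out 1 array gave 2 to 6 (3 and 2 without the first and second Fasting array, 3 without either HF1h array). The 2 modulated calls became 1 after median centring of each array and 4 with a 1.5-fold minimum, with 1 to 2 when 1 array was left out. The 2 calls between HF and LF ranged from 0 to 2, with 1 and 0 without the first and second LF3h array and 0 and 1 without the first and second HF3h array. The 69 enzyme calls ranged from 59 to 84 over the alternatives that kept all 6 comparisons. None of the 11 differences of members followed through the alternatives, those with an adjusted p under 0.1, turned its direction. Without the 30 min pools, which leaves the other differences as they are and changes their error alone, 4 comparisons with Fasting remained, with 6 member calls and 52 enzyme calls. With fewer probe sets tested the adjustment is milder, and the cause of the other changes was not tested. The filter on dim probe sets kept Ptf1a only because its HF3h mean was at the limit. Its HF3h calls in that fit thus rest on the level that admitted it. Arrays of the same number did not deviate together (correlations -0.187 to 0.151, median -0.001, 21 pairs of pools). With the replicate number as a block, 4 members' calls against Fasting, 2 modulated calls, 2 calls between the meals and 68 enzyme calls remained in number. Rbpjl at HF3h passed in 8 of 22 alternatives, and Nr5a2 at LF3h, Bhlha15 at LF1h and Gata4 at HF3h each in 3 of 23. The pools have no biological replicate, and levels under 6 limit what can be said of Ptf1a and Rbpjl.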
